A study of Drosophila melanogaster with 12 samples.

Results

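Strong neuronal knockdown of ND-75 was compared with control in adult fly heads by RNA-seq. The comparison used 8 of the 12 libraries of the series, 4 of ND-75 strong RNAi heads and 4 of control heads, and 16801 of the 17589 features in the deposited tables, of which 10522 had enough reads to be tested. The strong knockdown flies had the genotype nSybGal4/ND-75 strong RNAi, and the controls nSybGal4/w[1118]. A further genotype, nSybGal4/ND-75 weak RNAi, supplied the other 4 libraries and is used below only where the strong knockdown is set directly against it. The series' design text and the study's methods give HMS00853 as the RNAi line of the strong knockdown. The methods also place Tub-Gal80ts with the driver, which the sample labels do not name. Flies of every genotype were 2 days old and carried nSyb-Gal4, a driver active in neurons. Each library represents 20 pooled heads, with equal numbers (10) of males and females. The labels call the pools biological replicates without stating if their flies shared a cross, so p-values measure the spread between pools. The controls carry no RNAi construct, so effects of an RNAi insertion or of strain background and effects of ND-75 knockdown cannot be told apart.

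ND-75 encodes the fly counterpart of human NDUFS1, an iron-sulphur protein of the arm of mitochondrial complex I that takes electrons from NADH. When complex I is impaired, NADH is reoxidised less by the respiratory chain, and cells can regenerate NAD+ in the cytosol instead, for example by reducing pyruvate to lactate. Cells under mitochondrial or proteotoxic stress can also induce heat shock proteins and the transcription factor ATF4, which is encoded by crc in the fly. The heads analysed hold neurons together with glia, photoreceptors, muscle, fat body and cuticle-forming cells. In such bulk RNA, fewer cells of a type and less RNA per cell cannot be told apart.

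Total counts ran between 22034132 and 34169912 in strong knockdown libraries and between 20072723 and 30321519 in control libraries. Levels are given as CPM, the counts of a feature relative to the size of its library, scaled between libraries by the trimmed mean of M-values (TMM). One library of each group stood apart from the others of its group, with a mean distance over log2 CPM of 64.7 for strong knockdown replicate 4 and 74.2 for control replicate 3, against 48.2 to 55.7 for the other 6 libraries. For several results the value without these libraries is given beside the main one. The target itself, ND-75 (chrX:8248651-8251687), had 552, 542, 459 and 642 CPM in strong knockdown heads, against 721, 858, 1386 and 838 CPM in control heads. All 4 strong knockdown pools were below all 4 control pools, and the mean was 57.7% of that of controls (exact permutation test over libraries, two-sided p = 0.0286, the smallest that 4 against 4 can give). In the fit across all features, the log2 fold change of -0.79 did not pass the threshold (edgeR adjusted p = 0.117), but it did without both libraries that stood apart (-0.62, adjusted p = 0.0223). None of the 8 fits without 1 library called ND-75 (edgeR adjusted p 0.0948 to 0.343). Neurons are only part of the head, so the ND-75 level measured is not the extent of knockdown in neurons.

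Strong ND-75 knockdown was accompanied by changes in a small share of the head transcriptome, and most of these were increases. At an adjusted p under 0.05, 187 features were higher in strong knockdown heads (1.78% of those tested) and 62 were lower (0.589%), 2.37% in all. An unadjusted p under 0.05 was reached by 6.68% in the higher and 4.69% in the lower direction. The increases were large: the log2 fold change was 2 or more for 96 of the 187 and 1 or more for 163, and its size was as large for 24 and 51 of the 62 decreases. Most changed features were weakly expressed, with a mean under 10 CPM in both groups for 109 of the increases and 35 of the decreases. Only 18 increases and 2 decreases had a mean over 100 CPM in either group. Protein-coding genes supplied 142 of the increases and 51 of the decreases (1.99% of those tested, in either direction). Over all features tested the median log2 fold change was -0.01. The groups did not overlap for 184 of the 187 and 61 of the 62, while over all features tested 8.74% did not overlap (4.69% higher, 4.06% lower). The called features were selected on these same libraries, so little overlap among them was nearly fixed in advance. Without both libraries that stood apart, 407 features were higher and 125 lower, and these included 179 and 58 of the features called with all 8 libraries. Leaving out strong knockdown replicate 1, 2 or 3 or control replicate 2 brought the number of decreases below 40 (38, 38, 36 and 37).

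**Figure D1:**
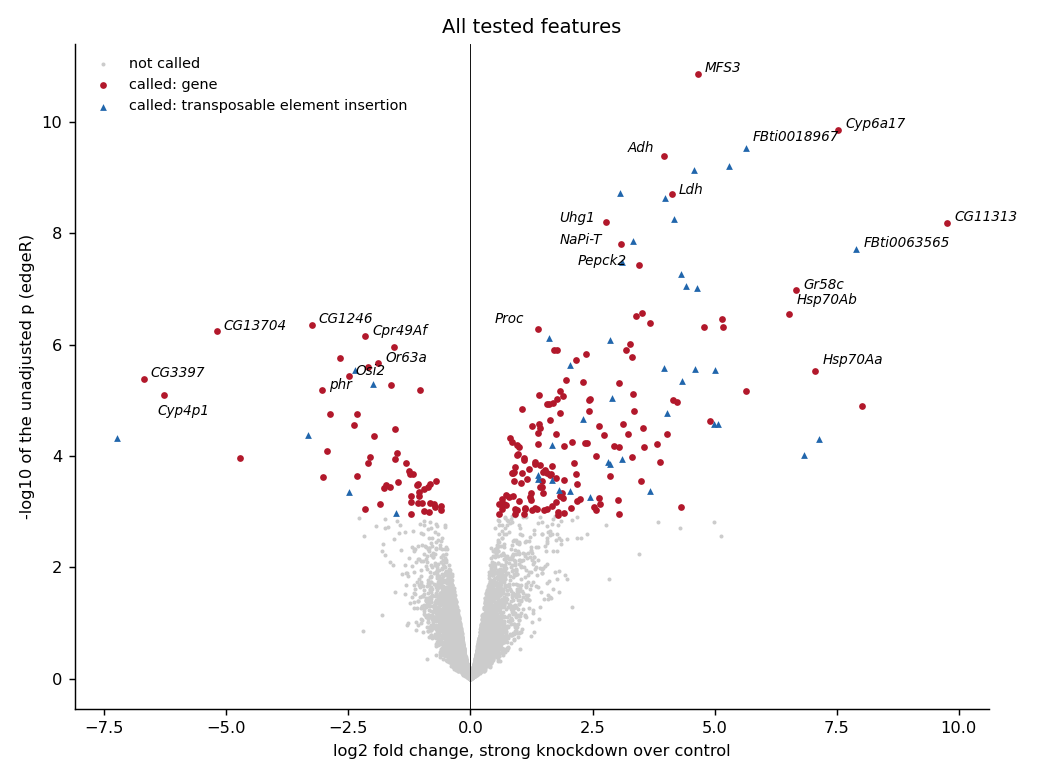
Log2 fold change (strong knockdown over control, 4 libraries a group) against -log10 of the unadjusted edgeR p for all 10522 features tested. Coloured points are the 187 features called higher and the 62 called lower; circles are genes, triangles transposable element insertions. Increases outnumber decreases and reach smaller p-values, with MFS3 at the top.

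Among the clearest increases were genes of sugar and phosphate transport, lactate and alcohol metabolism and the synthesis of phosphoenolpyruvate. Cyp6a17, Uhg1, CG11313 and several transposable element insertions, described below, ranked among these by p. MFS3, a sugar transporter of the major facilitator superfamily (chr2L:1143201-1147395), had 116, 103, 108 and 114 CPM in strong knockdown heads, against 5.13, 4.45, 4.31 and 3.71 CPM in control heads. It was 25.1-fold higher, and no feature tested had a smaller p (log2 fold change 4.65 ± 0.16, SE, edgeR adjusted p = 1.47e-07). Ldh, the enzyme that reduces pyruvate to lactate and thereby oxidises NADH (chr3L:6259105-6262694), had 484, 409, 439 and 404 CPM in strong knockdown heads. In control heads it had 15.5, 27.6, 28.6 and 27.9 CPM, a difference of 17.4-fold (log2 4.12 ± 0.23). Adh, alcohol dehydrogenase, which interconverts alcohols and aldehydes with NAD+ (chr2L:14615552-14618902), was 15.6-fold higher, with 17.1, 18.95, 19.3 and 22.6 CPM in strong knockdown heads, against 0.938, 1.29, 1.46 and 1.27 CPM in control heads. Each of these genes varied little within the strong knockdown group, and none of their ranges came near that of the controls.

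Pepck2, a phosphoenolpyruvate carboxykinase, had 173, 128, 129 and 165 CPM in strong knockdown heads and 12.9, 13.1, 19.9 and 8.81 CPM in control heads (log2 3.44 ± 0.25). NaPi-T, a sodium-dependent phosphate transporter, had 7.92, 7.35, 7.32 and 5.93 CPM in strong knockdown heads, against 0.691, 0.849, 1.03 and 0.792 CPM in control heads (log2 3.08 ± 0.21). All of these increases remained called whichever library was left out. Smaller increases in the same area were chosen for mention after their values were seen. NaPi-III, a phosphate transporter of another family, had 452, 471, 492 and 406 CPM in strong knockdown heads, against 296, 279, 289 and 295 CPM in control heads (log2 0.65, edgeR adjusted p = 0.0307). CG10960, whose protein resembles the trehalose transporter Tret1, averaged 482 ± 33.98 CPM in strong knockdown heads, against 306 ± 30.7 CPM in control heads (SD, n = 4 each). CG1673, annotated as a branched-chain amino acid aminotransferase, was uneven within the group, with 158, 143, 363 and 262 CPM in strong knockdown heads, against 84.0, 82.5, 56.1 and 69.3 CPM in control heads (log2 1.66). CROT, a carnitine acyltransferase of peroxisomes (log2 0.86), and Hmgs, the synthase that makes HMG-CoA (log2 0.59), were also called. NaPi-III, CG10960 and CROT each missed the threshold in 6 of the 8 fits without 1 library, with edgeR adjusted p up to 0.138, 0.164 and 0.114, and Hmgs in 7 (up to 0.147).

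Most other genes of the same pathways were not called. Of 13 glycolysis genes tested, Ldh alone was called, and the median of the list was 0.14, with 3 genes higher at an unadjusted p under 0.05 and 2 called by DESeq2. The groups did not overlap for 6 of the 13, all higher and Ldh among them, against 4.69% higher over all features tested. Ald1, aldolase, averaged 2943 ± 254 CPM in strong knockdown heads and 2074 ± 170 CPM in control heads without passing the threshold (log2 0.50, edgeR adjusted p = 0.155). Hex-A, hexokinase, was similar at 0.43 (adjusted p = 0.237), and passed the threshold at 0.49 without both libraries that stood apart (edgeR adjusted p = 0.0267). MFS3 and CG10960 were the 2 of 11 sugar transporters called, with a list median of -0.04. Among 20 genes of the TCA cycle and pyruvate dehydrogenase none was called by edgeR or DESeq2, and none had an unadjusted p under 0.05. The median there was -0.13, and 18 of the 20 fold changes were negative. Of 7 pentose phosphate genes none was called by edgeR or DESeq2, 2 were lower at an unadjusted p under 0.05, and 1 was called lower without both libraries that stood apart.

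**Figure D2:**
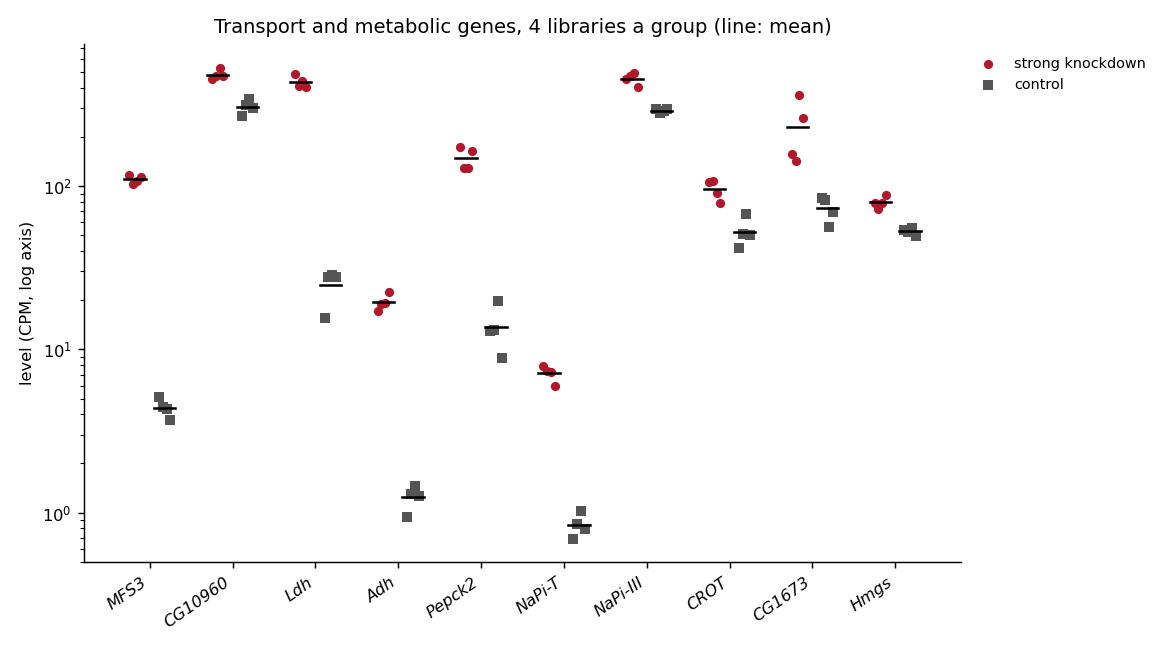
Levels (CPM, log axis) of 10 transport and metabolic genes in the 4 strong knockdown libraries (circles) and the 4 control libraries (squares); lines are group means. For each gene the 2 groups occupy separate ranges, with gaps that are widest for MFS3, Ldh and Adh.

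Almost no other gene of the respiratory chain was called. None of 31 other nuclear complex I subunits was called by edgeR or DESeq2, 1 was lower at an unadjusted p under 0.05, and 29 of the 31 log2 fold changes were negative, with a median of -0.25. Without both libraries that stood apart this median was -0.10. Of 35 nuclear subunits of complexes II to V, 1 was called and 30 had negative fold changes. The list median was -0.21, and -0.08 without both libraries that stood apart. The called gene was COX7AL, annotated as a paralogue of a cytochrome c oxidase subunit, which had 2.06, 1.22, 1.27 and 1.72 CPM in strong knockdown heads and 0.0494, 0.121, 0.158 and 0 CPM in control heads. None of 20 genes of the mitochondrial genome, 72 mitochondrial ribosomal proteins or 13 mitochondrial chaperones and proteases was called by edgeR or DESeq2, with 0, 1 and 2 members higher and none lower at an unadjusted p under 0.05. The medians of these lists were 0.19, -0.14 and 0.03, and 4 of 20, 57 of 72 and 4 of 13 fold changes were negative. Outside the lists, bor, which encodes a mitochondrial ATPase of the ATAD3 family, had 102, 90.8, 85.6 and 102 CPM in strong knockdown heads and 47.4, 50.1, 66.2 and 47.9 CPM in control heads (log2 0.85, edgeR adjusted p = 0.0141). It was not called in 4 of the 8 fits without 1 library (adjusted p up to 0.0772).

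The inducible Hsp70 genes rose, with some of the small heat shock proteins. The Hsp70 genes encode chaperones that are nearly silent in unstressed flies and bind unfolded proteins, and they lie as near-identical copies at separate sites on chromosome arm 3R. All 6 copies and Hsp68 were called higher, 7 of 7 with a median log2 fold change of 3.52. Reads of near-identical copies can be assigned to the wrong one, so the copies are best read as a sum. Together the 6 copies had 37.8, 97.8, 100.2 and 146.5 CPM in strong knockdown heads, against 4.29, 4.89, 7.19 and 5.67 CPM in control heads, a ratio of 17.3 (exact permutation test, p = 0.0286). Strong knockdown replicate 1 was the lowest and replicate 4 the highest of its group. By copy, Hsp70Ab had 9.18, 40.2, 37.0 and 49.2 CPM in strong knockdown heads and 0.197, 0.242, 0.672 and 0.317 CPM in control heads. Hsp70Bb had 12.9, 21.8, 25.1 and 39.1 CPM in strong knockdown heads, against 1.83, 2.26, 2.29 and 2.19 CPM in control heads. Fitted log2 fold changes were 7.06 for Hsp70Aa and 6.53 for Hsp70Ab, which neighbour each other, and 3.04 to 4.16 for the 4 copies of the other site. Hsp70Aa had no read in 2 control libraries.

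The same order of libraries was seen for Hsp68, another inducible member of the family, with 46.0, 56.1, 60.8 and 95.2 CPM in strong knockdown heads against 17.3, 19.3, 20.9 and 14.5 CPM in control heads (log2 1.84 ± 0.23). Of 10 small heat shock proteins, chaperones that hold unfolded proteins without ATP, 3 were called. Hsp26 had 35.2, 50.1, 64.0 and 163 CPM in strong knockdown heads and 13.03, 14.4, 15.8 and 9.48 CPM in control heads (log2 2.57 ± 0.43). Hsp23 (log2 1.04) and Hsp67Bc (log2 0.90) lie beside it on 3L. They lost the call in 4 and 3 of the 8 fits without 1 library (adjusted p up to 0.0704 and 0.0636), while Hsp26 kept it. Hsp27 averaged 14.4 ± 8.49 CPM in strong knockdown heads, against 6.58 ± 2.50 CPM in control heads and was not called (edgeR adjusted p = 0.213). l(2)efl, a relative of the crystallins, had 60.3, 57.1, 51.2 and 67.0 CPM in strong knockdown heads, against 70.8, 72.4, 124 and 84.3 CPM in control heads and was not called either (log2 -0.58, adjusted p = 0.233).

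A few co-chaperones that work with Hsp70 were called higher, and its main constitutive relative was not called. DnaJ-1, the main fly Hsp40, had 82.0, 154, 179 and 156 CPM in strong knockdown heads against 53.7, 53.3, 56.2 and 55.0 CPM in control heads (log2 1.39, edgeR adjusted p = 0.00566). CG7130, which contains a DnaJ domain, had 16.7, 15.8, 15.6 and 26.5 CPM in strong knockdown heads, against 2.17, 3.31, 5.81 and 2.50 CPM in control heads (log2 2.43). stv, a BAG-domain co-chaperone, had 144, 231, 269 and 206 CPM in strong knockdown heads, against 133, 111, 90.6 and 117 CPM in control heads (log2 0.91, adjusted p = 0.0467). HIP, which binds Hsp70 in its ADP state, was called at 0.73, and both stv and HIP fell short in most fits without 1 library (7 and 6 of 8, adjusted p up to 0.142 and 0.124). DnaJ-1, HIP and stv were the 3 of 22 constitutive chaperones and co-chaperones called, in a list with a median of 0.11. Hsc70-4, the main constitutive cytosolic Hsp70, averaged 2002 ± 514 CPM in strong knockdown heads and 1975 ± 500 CPM in control heads. Hsp83, the fly Hsp90, had 275, 442, 470 and 1175 CPM in strong knockdown heads, against 221, 222, 467 and 288 CPM in control heads and was not called. lncRNA:Hsromega, a long RNA that forms nuclear bodies in heat-shocked cells, had 208, 304, 348 and 327 CPM in strong knockdown heads, against 107, 121, 131 and 133 CPM in control heads (log2 1.27 ± 0.18).

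**Figure D3:**
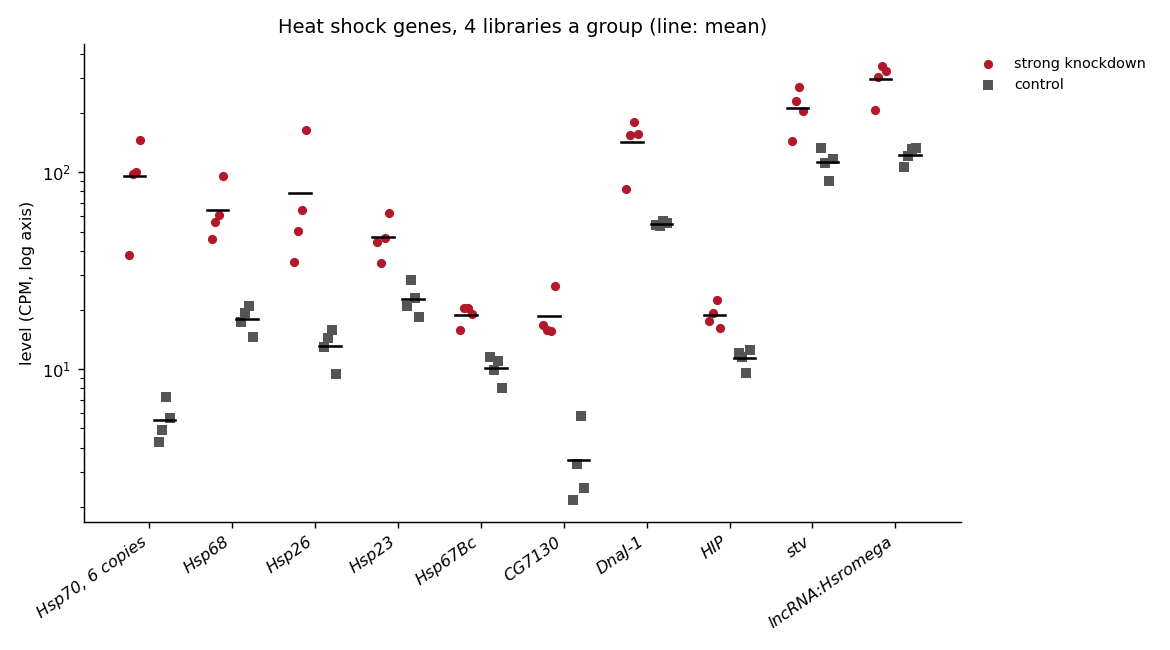
Levels (CPM, log axis) of heat shock genes in the 4 strong knockdown libraries (circles) and the 4 control libraries (squares), with the 6 Hsp70 copies summed; lines are group means. Strong knockdown libraries spread widely for Hsp70 and Hsp26 (35.2 to 163 CPM for Hsp26) while control libraries stay close together.

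At the RNA level, other stress responses showed few or no calls, and ATF4-linked genes had a larger share called than features at large. Of 22 genes of the ER unfolded protein response, none was called by edgeR or DESeq2, and 2 were higher at an unadjusted p under 0.05, with a median of 0.14. Hsc70-3, the ER chaperone BiP, had the largest increase of these, with a log2 fold change of 0.72 (edgeR adjusted p = 0.202). crc, which encodes ATF4, averaged 359 ± 43.3 CPM in strong knockdown heads and 331 ± 47.6 CPM in control heads (log2 0.12, adjusted p = 0.878). From protein staining, the study reports activation of ATF4 and the unfolded protein response in strong knockdown larval motor neurons and, for ATF4, in adult brain. RNA levels of crc and of unfolded protein response genes do not measure that activation. Of 19 ATF4-linked genes, Ldh and Pepck2 were called (10.5%, against 1.78% called higher over all features tested), and DESeq2 called 3. At an unadjusted p under 0.05, 6 of the 19 were higher, against 6.68% over all features tested. Of the 19 fold changes 17 were positive, and the median was 0.40. Nmdmc, a mitochondrial folate enzyme of this list, averaged 331 ± 70.4 CPM in strong knockdown heads, against 215 ± 39.5 CPM in control heads without a call (adjusted p = 0.190). It passed the threshold with DESeq2 (adjusted p = 0.0481) and, in edgeR, without both libraries that stood apart (adjusted p = 0.0269). None of 35 aminoacyl-tRNA synthetases was called by edgeR or DESeq2, 2 were higher at an unadjusted p under 0.05, and the median was -0.03. For the 26S proteasome, 0 of 37 subunits were called by either tool and 1 was higher at an unadjusted p under 0.05, although 34 of the 37 fold changes were positive (median 0.17).

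Detoxification enzymes changed in both directions, some by very large factors. Cytochrome P450s oxidise hormones, lipids and toxins, and 8 of 75 were higher and 2 lower, with a list median of -0.06. Cyp6a17 (chr2R:14873953-14875739) had 38.4, 32.2, 36.1 and 41.3 CPM in strong knockdown heads against 0.296, 0.0808, 0.0790 and 0.317 CPM in control heads, a difference of 185-fold. Cyp6a19, which starts 2047 bases beyond its end, was higher too, at 1.02 ± 0.12 CPM in strong knockdown heads, against 0.152 ± 0.090 CPM in control heads. Cyp4p1 moved the other way, with 0.324, 0.0435, 2.39 and 0.0390 CPM in strong knockdown heads and 61.9, 76.8, 47.0 and 52.5 CPM in control heads (log2 -6.27 ± 0.79). Its level in strong knockdown replicate 3 was far above that in the rest of the group and still far below every control library.

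Cyp4e3 was among the P450s that rose, with 121, 158, 289 and 181 CPM in strong knockdown heads against 34.7, 49.5, 31.6 and 21.1 CPM in control heads (log2 2.45). Cyp12d1-p had 38.5, 20.7, 25.7 and 58.8 CPM in strong knockdown heads, against 4.84, 4.36, 1.34 and 3.71 CPM in control heads (log2 3.34), and Cyp309a2 had a log2 fold change of 3.27. Cyp12d1-p has a near-identical neighbour, Cyp12d1-d, so its reads are uncertain. Further increases were in Cyp316a1 (log2 3.68), Cyp6d2 (log2 2.35) and Cyp6a14 (log2 0.91), and Cyp4d20 was lower (log2 -1.06). Cyp6a14 and Cyp4d20 lost the call in 6 and 7 of the 8 fits without 1 library (adjusted p up to 0.137 and 0.103). Without strong knockdown replicate 4, 5 P450s were lower, and without both libraries that stood apart 9 were higher and 6 lower.

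Of 22 UDP-glycosyltransferases, which attach sugars to small molecules, 2 were higher and 1 lower (median 0.01). Ugt37A3 had 34.6, 58.3, 103 and 141 CPM in strong knockdown heads against 15.4, 20.2, 12.9 and 15.5 CPM in control heads (log2 2.39), and Ugt37A2, 541 bases away on the other strand, was also higher (log2 2.64). The library kit did not keep strand, so reads of close or overlapping genes may not be separable. Ugt35C1 was lower, with 42.6, 26.3, 26.8 and 40.7 CPM in strong knockdown heads, against 79.0, 89.3, 63.6 and 58.4 CPM in control heads (log2 -1.09). Ugt37A2 and Ugt35C1 missed the threshold in 6 and 4 of the 8 fits without 1 library (adjusted p up to 0.0976 and 0.0739). No glutathione S-transferase of 32 was called by edgeR, an unadjusted p under 0.05 was found for 4 higher and 2 lower, and DESeq2 called 2 higher. Prx2540-1, a peroxiredoxin with close copies, was the only one of 15 superoxide and peroxide defence genes called (log2 1.11), and 6 of the 8 fits without 1 library did not call it (adjusted p up to 0.131).

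Few immune genes were called with all 8 libraries. AttA, an antibacterial attacin, had 106, 75.6, 87.4 and 63.2 CPM in strong knockdown heads against 4.98, 1.54, 14.8 and 2.31 CPM in control heads (log2 3.82 ± 0.60). It was the only one of 18 antimicrobial peptides called, in a list with a median of 0.47, but 7 were higher without control replicate 3 and 8 without both libraries that stood apart. The study reports on antimicrobial peptides, heat shock genes and the proteasome in these same libraries, so the direction of those lists is not independent evidence. AttC, a related attacin, was highest in control replicate 3, with 591, 545, 690 and 705 CPM in strong knockdown heads against 311, 257, 991 and 277 CPM in control heads. It was called without both libraries that stood apart (log2 1.14, edgeR adjusted p = 0.00143). None of 12 Bomanins, short secreted immune peptides, was called by edgeR or DESeq2, and 2 were higher at an unadjusted p under 0.05. Of 11 peptidoglycan recognition proteins edgeR called 0 and DESeq2 2, with 3 higher at an unadjusted p under 0.05.

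CG11313, a serine protease of the clip-domain kind, had the largest fitted fold change of any feature tested, with 47.8, 39.9, 38.7 and 96.7 CPM in strong knockdown heads. Control heads had 0.148, 0.121, 0 and 0 CPM, so the fitted log2 value of 9.77 rests on very few control reads. Among immune genes chosen after their values were seen, Tep4, a thioester protein of the blood, had 462, 394, 458 and 522 CPM in strong knockdown heads, against 238, 233, 150 and 237 CPM in control heads (log2 1.10). pirk, which damps the Imd immune pathway, was higher by a log2 fold change of 1.58, but not in 6 of the 8 fits without 1 library (adjusted p up to 0.128). TotX, a Turandot stress peptide, was lower, with 8.77, 5.74, 5.75 and 11.6 CPM in strong knockdown heads, against 21.4, 18.8, 18.1 and 21.2 CPM in control heads (log2 -1.32). It was the 1 of 10 Turandot and JAK/STAT genes called.

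Genes of the fat body varied between the pools. Larval serum proteins are storage proteins laid down by larvae and used up in young adults, and Fbp1 and Fbp2 are fat body proteins linked to them. All 8 fat body genes tested had positive fold changes, with a median of 1.74. edgeR called 2 of them and DESeq2 6. Lsp1gamma had 4.27, 9.52, 7.29 and 2.42 CPM in strong knockdown heads against 1.48, 1.94, 1.70 and 1.46 CPM in control heads (log2 1.83), and Fbp1 had 21.7, 49.99, 31.6 and 8.35 CPM in strong knockdown heads, against 6.02, 9.21, 8.26 and 6.05 CPM in control heads (log2 1.92). The groups overlapped for Fbp1. Both lost the call in most fits without 1 library (6 and 7 of 8, adjusted p up to 0.0988 and 0.143), and no member of the list was called without strong knockdown replicate 3, control replicate 1 or control replicate 4. The 6 genes for larval serum proteins and Fbp1 and Fbp2 summed to 1080, 567, 671 and 2171 CPM in strong knockdown heads against 343, 480, 181 and 247 CPM in control heads (exact permutation test, p = 0.0286). Lsp1beta supplied most of the highest value, with 1576 CPM in strong knockdown replicate 4.

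A group of genes chosen after their values were seen shared another order, lowest in strong knockdown replicate 4. CG8483, whose protein resembles a wasp venom allergen, had 39.9, 380, 261 and 7.76 CPM in strong knockdown heads against 7.01, 7.31, 10.4 and 9.63 CPM in control heads (log2 4.32 ± 0.94), and the groups overlapped. frm had 26.9, 51.4, 19.9 and 4.60 CPM in strong knockdown heads, against 3.70, 3.84, 2.84 and 5.96 CPM in control heads, and mag, a lipase that also works on cholesterol in the gut, had 10.4, 5.74, 35.2 and 4.64 CPM in strong knockdown heads, against 1.53, 1.13, 1.26 and 2.85 CPM in control heads. CG8483, frm and mag were no longer called in 6, 7 and 4 of the 8 fits without 1 library (adjusted p up to 0.118, 0.106 and 0.1002). mag overlaps the gene atk on the opposite strand, and atk was also called higher (log2 1.47). mag was the 1 of 24 lipid genes called, in a list with a median of 0.21.

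Markers of the main cell types of the head were present in both groups and were not called. Among 19 neuronal genes, 0 passed with edgeR or DESeq2 and 1 had an unadjusted p under 0.05, with summed levels of 2740 to 5551 CPM in strong knockdown heads and 2875 to 5359 CPM in control heads. This 1 gene was ple, tyrosine hydroxylase, with 199, 441, 308 and 127 CPM in strong knockdown heads, against 111, 116, 135 and 219 CPM in control heads (log2 0.89, edgeR adjusted p = 0.358). The 13 glial genes summed to 4292 to 5178 CPM in strong knockdown heads, against 4621 to 5025 CPM in control heads, and the 19 photoreceptor genes to 39318 to 47583 CPM in strong knockdown heads, against 45336 to 58140 CPM in control heads. For these, neither tool called a member, and 2 and 3 were lower at an unadjusted p under 0.05, with medians of -0.06 and -0.20. Fold changes were negative for 12 of 19 neuronal genes (median -0.04), 7 of 13 glial genes and 17 of 19 photoreceptor genes. Of 24 muscle genes none was called by either tool and 1 was higher at an unadjusted p under 0.05. Negative fold changes were found for 19 of the 24 (median -0.10). Of 10 hemocyte genes edgeR called 0 and DESeq2 1, and an unadjusted p under 0.05 was found for 1 in each direction. Here 8 of the 10 fold changes were negative (median -0.23). The part of cell composition in the results was not tested. Of 49 cuticle proteins, Ccp84Ag was higher (log2 1.63), and Cpr49Af and Lcp65Ac were lower (log2 -2.16 and -1.07). Lcp65Ac and Ccp84Ag were not called in 4 and 1 of the 8 fits without 1 library (adjusted p up to 0.0837 and 0.0514). Of these cuticle proteins, 5 were higher without strong knockdown replicate 4 and 10 without both libraries that stood apart.

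**Figure D4:**
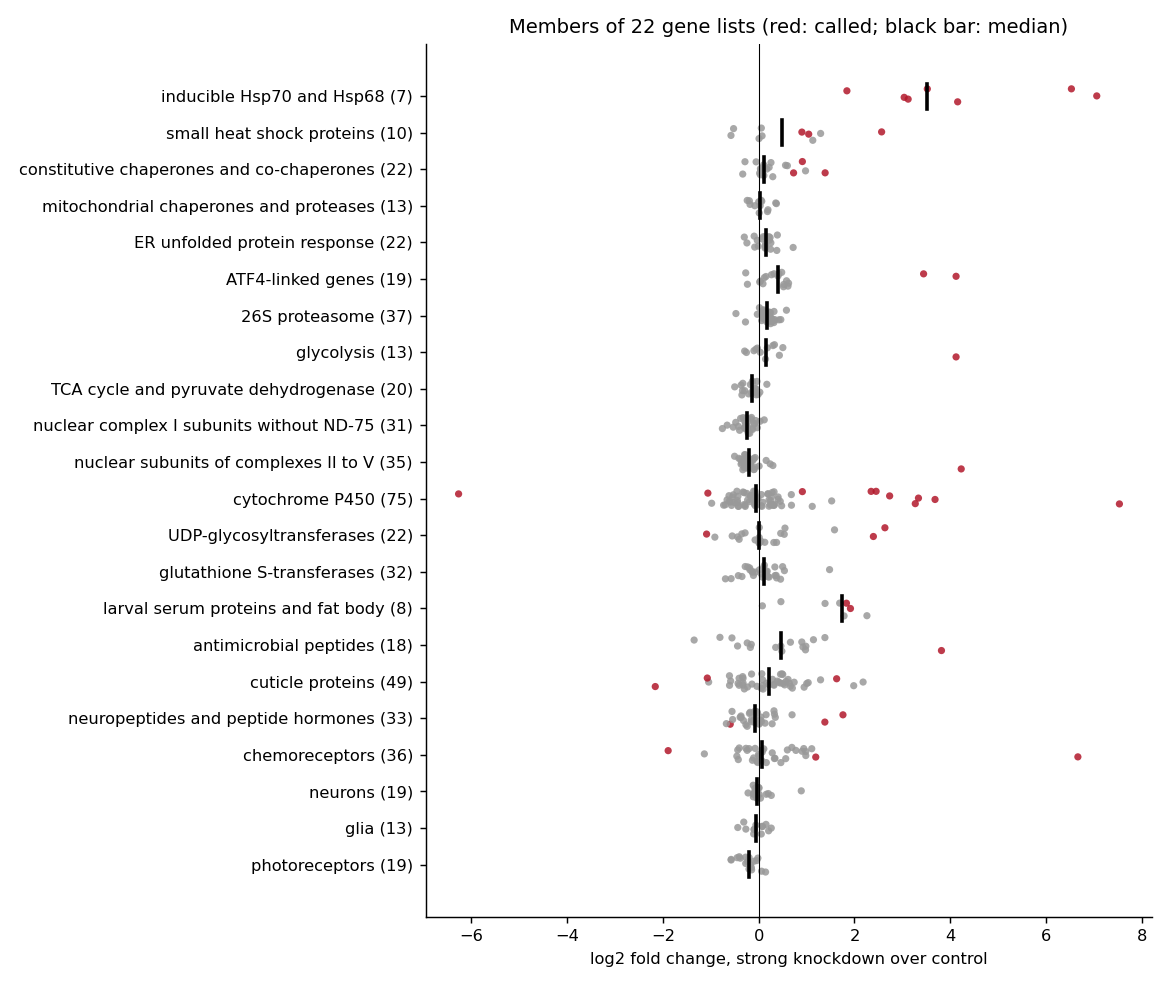
Log2 fold change (strong knockdown over control) of each tested member of 22 gene lists, with the number of members in parentheses; red points are called, grey points are not, and black bars are list medians. The Hsp70 and Hsp68 list stands to the right with all 7 members called. The neuronal, glial and photoreceptor lists have no called member, with medians of -0.04, -0.06 and -0.20.

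Several genes that act in neurons changed while the neuronal markers were not called. Proc, the neuropeptide proctolin, had 127, 119, 127 and 129 CPM in strong knockdown heads against 52.8, 48.9, 48.4 and 42.7 CPM in control heads (log2 1.38 ± 0.13). It was among the most even differences in the data. Eh, eclosion hormone, had 7.65, 6.82, 4.82 and 7.10 CPM in strong knockdown heads, against 1.33, 1.90, 3.67 and 0.887 CPM in control heads (log2 1.76), and Mip, myoinhibiting peptide, had 19.5, 21.6, 23.7 and 20.2 CPM in strong knockdown heads, against 32.9, 32.1, 34.8 and 28.7 CPM in control heads (log2 -0.59). These were the 2 neuropeptide genes higher and 1 lower of 33 tested, with a list median of -0.07. Eh and Mip lost the call in 6 and 7 of the 8 fits without 1 library (adjusted p up to 0.111 and 0.171), and Proc in none.

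The next genes were chosen after their values were seen. Arc1 and Arc2 encode capsid-forming proteins derived from a retrotransposon that carry RNA between cells, and they lie 1627 bases apart on 2R. Arc1 had 205, 190, 226 and 240 CPM in strong knockdown heads against 93.6, 102, 136 and 105 CPM in control heads (log2 0.98), and Arc2 had 10.8, 9.74, 9.68 and 15.6 CPM in strong knockdown heads, against 4.74, 3.92, 5.25 and 3.58 CPM in control heads (log2 1.39). Dgp-1, a GTP-binding protein, had 292, 232, 214 and 298 CPM in strong knockdown heads, against 54.1, 59.8, 98.9 and 52.8 CPM in control heads, 3.9-fold higher (log2 1.96 ± 0.23). All of these remained called whichever library was left out. Lower were kek4, a transmembrane protein with leucine-rich repeats (log2 -0.83), and daw, an activin-like ligand (log2 -0.73), which missed the threshold in 6 and 7 of the 8 fits without 1 library (adjusted p up to 0.0767 and 0.156).

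Chemoreceptor genes were weakly expressed in both groups, and few had enough reads. Of 36 chemoreceptors tested, out of 151 in the table, 2 were higher and 1 lower (median 0.07). Gr58c, a gustatory receptor, had 3.15, 1.70, 2.49 and 2.42 CPM in strong knockdown heads and 0.0494, 0, 0 and 0.0317 CPM in control heads. Only the strong knockdown libraries gave Gr58c enough reads to be tested. Or63a, an odorant receptor, had 1.68, 2.39, 1.87 and 1.91 CPM in strong knockdown heads, against 6.96, 5.98, 9.40 and 6.69 CPM in control heads (log2 -1.89 ± 0.21). Ir76a, an ionotropic receptor, was higher by a log2 fold change of 1.19. Of 30 odorant-binding proteins, which carry odorants to the receptors, Obp99d alone was called, with 1.38, 1.26, 0.650 and 0.741 CPM in strong knockdown heads, against 3.50, 4.08, 8.14 and 5.23 CPM in control heads (log2 -2.38).

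Sodium channel genes of the pickpocket family, chosen after their values were seen, rose together at a single site. The proteins are subunits of channels of the DEG/ENaC kind, several of which serve taste and touch. ppk21, ppk20, ppk30 and ppk19 lie in this order between bases 29664779 and 29674223 of 3R, with 31 to 978 bases between neighbours. ppk21 had 1.24, 0.956, 1.03 and 1.01 CPM in strong knockdown heads against 0.148, 0.283, 0.0790 and 0.158 CPM in control heads, and ppk19 had 1.06, 0.652, 1.71 and 1.56 CPM in strong knockdown heads, against 0.148, 0.364, 0.0395 and 0.127 CPM in control heads. The log2 fold changes were 2.64 for ppk21, 1.80 for ppk20, 2.06 for ppk30 and 2.87 for ppk19, and these 4 were all of the 13 tested genes with the same channel domain that were called. Control means of ppk21 and ppk19 were 0.167 and 0.170 CPM. These genes entered the test through the strong knockdown reads, so the count of 4 of 13 is not evidence. Only ppk21 was called in every fit without 1 library, while ppk19, ppk20 and ppk30 missed in 3, 6 and 6 (adjusted p up to 0.0629, 0.148 and 0.124). With genes so close and strand not kept, their reads are not independent.

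Among the genes that fell, several were close to absent in strong knockdown heads. CG3397, an aldo-keto reductase (chr3R:11983098-11984541), had 0, 0, 1.14 and 0.0780 CPM in strong knockdown heads, against 24.9, 38.7, 48.6 and 33.0 CPM in control heads (log2 -6.69 ± 0.79). CG12224, a related reductase that ends 1036 bases from it, was also lower, with 0.736, 1.26, 1.25 and 0.468 CPM in strong knockdown heads, against 3.60, 4.69, 6.08 and 4.28 CPM in control heads. CG13704 had 0.0294, 0.0869, 0.190 and 0.195 CPM in strong knockdown heads, against 6.61, 6.38, 2.57 and 3.55 CPM in control heads. CG3397 and Cyp4p1 shared strong knockdown replicate 3 as their highest library of the group, with 1.14 and 2.39 CPM.

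CG1246, a gene of unknown function, had 0.618, 0.217, 0.515 and 0.780 CPM in strong knockdown heads against 4.49, 5.37, 5.65 and 5.17 CPM in control heads (log2 -3.25 ± 0.30). Osi2, of the Osiris family of insect-specific membrane proteins, had 11.1, 7.39, 7.78 and 15.1 CPM in strong knockdown heads, against 42.1, 48.9, 87.2 and 55.2 CPM in control heads (log2 -2.50). Cpr49Af, a chitin-binding cuticle protein, had 2.18, 1.52, 1.38 and 1.72 CPM in strong knockdown heads, against 6.86, 7.88, 9.28 and 6.47 CPM in control heads.

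The photolyases, enzymes that use light to repair ultraviolet damage in DNA, moved apart. phr, which repairs pyrimidine dimers, had 2.50, 2.56, 3.09 and 4.76 CPM in strong knockdown heads against 17.1, 17.8, 49.6 and 22.3 CPM in control heads (log2 -3.05 ± 0.38). phr6-4, which repairs the other main photoproduct and was chosen after its values were seen, had 1.77, 1.22, 1.25 and 1.64 CPM in strong knockdown heads, against 0.0987, 0.242, 0.198 and 0.0317 CPM in control heads (log2 3.36 ± 0.46). Both calls held without any 1 library.

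Est-6, a secreted esterase, was lower, with 205, 200, 198 and 316 CPM in strong knockdown heads against 407, 466, 714 and 590 CPM in control heads (log2 -1.25, edgeR adjusted p = 0.0142). It lost the call in 3 of the 8 fits without 1 library (adjusted p up to 0.0637). mthl8, a receptor of the methuselah family, had 16.4, 16.1, 16.9 and 18.6 CPM in strong knockdown heads, against 37.5, 34.4, 35.3 and 31.7 CPM in control heads (log2 -1.03 ± 0.13), and its relative mthl4 fell as well (log2 -1.50). rdhB, a retinol dehydrogenase that makes the chromophore of the visual pigment, had 131, 104, 97.4 and 118 CPM in strong knockdown heads, against 189, 209, 257 and 172 CPM in control heads (log2 -0.88), with 3 of the 8 fits not calling it (adjusted p up to 0.101). Est-6, mthl4 and rdhB were chosen after their values were seen.

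**Figure D5:**
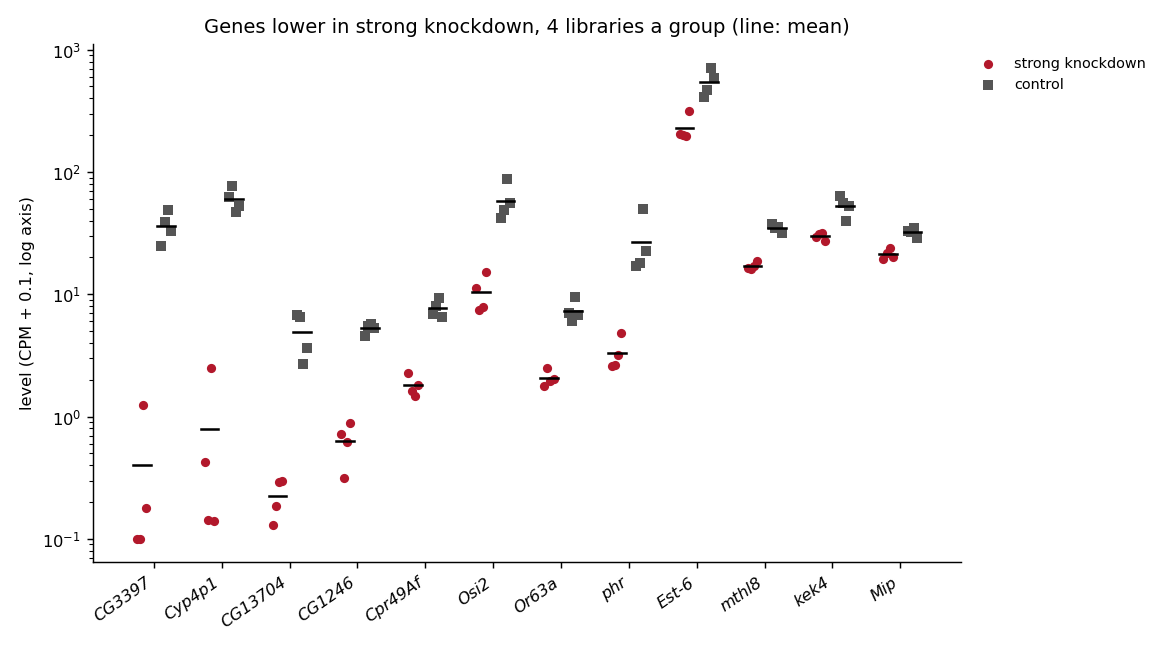
Levels (CPM + 0.1, log axis) of 12 genes lower in strong knockdown heads, in the 4 strong knockdown libraries (circles) and the 4 control libraries (squares); lines are group means. The gaps run between near absence, as for CG3397 and Cyp4p1, and modest differences, as for Mip (log2 -0.59).

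Transposable element insertions were called more often than other features, and nearly all of those called rose. Of 399 tested, 37 were higher (9.27%) and 6 lower (1.5%), while 1.46% of protein-coding genes were higher and 0.525% lower. Weakly expressed insertions could enter the test through the reads of either group alone, so these shares depend partly on the changes themselves. The median over all 399 was 0.04, and the summed level of all insertions in the table was 980, 1238, 1268 and 773 CPM in strong knockdown heads against 843, 661, 551 and 951 CPM in control heads (exact permutation test, p = 0.114).

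Of the 12 tested insertions whose annotation carries a gag domain of the copia type of retrotransposon, 11 were higher and 0 lower. The read filter could admit a copy on the strong knockdown libraries alone. Several of the 11 had almost no control reads, such as FBti0019468 and FBti0019568 (control means 0.0447 and 0.0886 CPM), so this share was favoured in advance. The group was chosen after its values were seen, and its members are near-identical copies of about the same length, most between 5144 and 5163 bases, among which reads cannot be placed with certainty. The sum over all 25 insertions with this domain in the table, tested or not, was 88.4, 85.4, 97.7 and 83.4 CPM in strong knockdown heads against 11.2, 7.15, 5.85 and 9.70 CPM in control heads, a ratio of 10.5. An exact permutation test gave p = 0.0286, but the group was chosen for its values, so this p is not evidence. One of these insertions, FBti0018967 on 2R (chr2R:5217753-5222897), averaged 26.6 CPM in strong knockdown heads, against 0.549 CPM in control heads (log2 5.64). The tables do not show which copies each genotype carries, and insertions that differ between the RNAi line and w[1118] cannot be told apart from changes in transcription. An element near the tip of the X, FBti0063565, had 40.1, 67.2, 60.8 and 30.5 CPM in strong knockdown heads, against 0.0494, 0, 0.395 and 0.317 CPM in control heads, and its neighbour FBti0062856, 39 bases away, was higher too (log2 3.10). FBti0059664 on 3L had no read in any strong knockdown library and 0.444, 0.525, 1.11 and 0.634 CPM in control heads. A pair of genes of the piRNA pathway, which silences transposable elements in the germline, were called and were chosen after their values were seen. They were qin (log2 1.70, 5.36, 4.13, 5.53 and 4.60 CPM in strong knockdown heads against 1.68, 1.50, 1.07 and 1.81 CPM in control heads) and aub (log2 1.25, not called in 7 of the 8 fits without 1 library, adjusted p up to 0.134).

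Noncoding RNAs were called in 10 of 336 cases (2.98%), 7 higher (2.08%) and 3 lower (0.893%). Uhg1, a host gene whose introns release small nucleolar RNAs (chr2R:17699097-17703344), had 24.8, 17.9, 20.4 and 24.1 CPM in strong knockdown heads against 3.26, 3.68, 2.84 and 3.01 CPM in control heads, 6.82-fold higher (log2 2.77 ± 0.17). hpRNA:CR32207, a hairpin RNA, had 6.18, 4.39, 5.04 and 6.59 CPM in strong knockdown heads, against 0.345, 0.808, 0.909 and 0.349 CPM in control heads (log2 3.20). lncRNA:CR44522 was higher (log2 5.17) but lies 314 bases from Ldh on the same strand, so its reads may belong to Ldh transcripts, and this was not tested. On 2L, lncRNA:CR45456 and lncRNA:CR45457 were lower together with CG17005 beside them, which had 4.44, 2.35, 2.33 and 1.76 CPM in strong knockdown heads, against 18.5, 13.4, 15.6 and 21.9 CPM in control heads (log2 -2.66).

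Set directly against weak knockdown heads, strong knockdown heads had 870 features higher (8.18% of 10638 tested) and 329 lower (3.09%). Of the genes above, MFS3 (log2 strong over weak 4.74), Ldh (3.69), Adh (3.72) and NaPi-T (2.64) were higher in strong than in weak knockdown heads by nearly as much as over control heads. Pepck2 differed less, at 1.26. Proc (1.27), Dgp-1 (2.26), Uhg1 (2.16), lncRNA:Hsromega (1.34), AttA (5.78) and CG11313 (9.08) were also higher in strong knockdown heads, and Cyp4p1 (-6.59), CG3397 (-6.58) and CG13704 (-5.18) were lower. For other genes no difference between the knockdowns was called. Cyp12d1-p (log2 -0.32, edgeR adjusted p = 0.533), Ugt37A3 (0.38, 0.576), CG1246 (-0.02, 0.989), Osi2 (-0.07, 0.882) and Tep4 (-0.07, 0.754) were of this kind. Cyp6a17 was somewhat lower in strong than in weak knockdown heads (-0.64, adjusted p = 0.0186). Of the Hsp70 copies, Hsp70Aa (3.72) and Hsp70Ab (3.24) were higher in strong knockdown heads. Hsp70Ba (1.53, edgeR adjusted p = 0.282), Hsp70Bb (0.20, 0.859), Hsp70Bbb (0.78, 0.578) and Hsp70Bc (0.96, 0.430) were not called. Reads of near-identical copies cannot be placed with certainty, and the sum of the copies was not compared with weak knockdown heads. Hsp68 (0.44, 0.644) and Hsp26 (1.51, 0.218) were not called either. In the proteasome list, where no subunit passed against control, 33 of 37 were higher and 1 lower in strong than in weak knockdown heads, with a median of 0.94. The number of decreases against weak knockdown heads was 219 without strong knockdown replicate 2, 651 without strong knockdown replicate 4, and 203, 192 and 189 without weak knockdown replicate 1, 3 and 4. Both comparisons share the strong knockdown libraries.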

How the data were processed

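Raw counts of the 4 strong knockdown and 4 control libraries were taken from the authors' deposited table of this comparison, which pairs gene symbols with coordinates of release 6 of the fly genome. Per the submitters' notes, reads were trimmed with fastp, aligned with HISAT2 and counted with featureCounts. Tool versions and settings are not given in the sources that were read. FPKM values, which the authors computed per library and deposited beside the counts, were not used for tests. The deposited fold changes and p-values hold the authors' own DESeq2 comparisons and were not used, nor were 24 columns of normalized counts.

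Counts were filtered with filterByExpr (minimum count 10, minimum total 15), scaled by TMM and tested with the quasi-likelihood test of edgeR 4.0.16 in R 4.3.3, with a Benjamini-Hochberg adjusted p under 0.05 over all features tested as the threshold, with no fold threshold. The same fit was made on the strong and weak knockdown libraries. The filter can admit a feature on the reads of either group alone, so counts of called among tested members depend partly on the changes themselves. DESeq2 1.42.0 was an alternative, as were other scaling, no filter, a replicate block, all 12 libraries, no transposable elements, removal of a length trend fitted by lowess, and leaving out libraries. Summed levels and ND-75 were compared with exact permutation tests. Tables and plots were made with Python 3.11.15, pandas 2.3.3, numpy 2.4.6 and matplotlib 3.10.9. On simulated counts for strong knockdown against control (10341 features), the test recovered 62% of features changed by 1 on the log2 scale and 93% of those changed by 2, with 10 false calls.

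The comparison, the genes and 45 gene lists were chosen with earlier results of these data known. Lists are described by counts and medians, with no set test. Named genes are, per direction and ranked by p, the first 12 protein-coding genes called with a log2 change of at least 1 and no overlap, the first 4 transposable elements and the first 4 noncoding RNAs, up to 6 called members of each list per direction, all members of lists of 14 or fewer, the 2 highest expressed members of any list, and crc, ND-75, v, w and y. Genes named outside this rule were chosen after their values were seen, as the text says. CPM is not per length.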

Additional observations from a re-analysis of the deposited data

Results flagged for a closer look

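For the genes screened, the highest or lowest of the 4 libraries of a group was compared with the rest of the group, by its gap to the nearest library as a share of the group's range. Of 276 groups screened, 24 passed. About 1 in 20 groups passes by chance, so part of those listed below would be listed by chance. The libraries picked out most often were strong knockdown replicate 4 and control replicate 3, the ones that also stood apart over all features.

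Strong knockdown replicate 4 was high in its group for v (85.9 CPM), Hsp27 (27.1 CPM), CG7130 (26.5 CPM), Hsc70-4 (2772 CPM), AsnS (173 CPM), CG11313 (96.7 CPM) and Est-6 (316 CPM), and low for Hex-A (384 CPM) and Cks30A (0.195 CPM). Control replicate 3 was high for Nmdmc (273 CPM), Dgp-1 (98.9 CPM), AttC (991 CPM), phr (49.6 CPM) and bor (66.2 CPM), and low for Ald1 (1823 CPM) and Tep4 (150 CPM). Without both libraries 407 features were higher and 125 lower, against 187 and 62 with all 8.

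Strong knockdown replicate 3 held most of what remained of Cyp4p1 (2.39 CPM) and CG3397 (1.14 CPM) and was highest for the copia-type insertion FBti0019405 (10.4 CPM). Strong knockdown replicate 2 was low for Proc (119 CPM), a gene whose range in the group was narrow. Control replicate 1 was low for Ldh (15.5 CPM). Control replicate 2 was high for Hsp27 (10.3 CPM) and for the insertion FBti0019193 (1.70 CPM), and control replicate 4 was low for Prx2540-2 (32.1 CPM).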

How the results depend on the processing

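None of the 113 called genes screened changed direction under the alternatives run. These genes were selected as called on the same libraries, so a reversal was unlikely from the outset. With all 8 libraries, 187 features were higher and 62 lower in strong knockdown heads. DESeq2 called 371 and 133, which included all 187 and 62. With the length trend removed there were 281 and 108, and without control replicate 3 and strong knockdown replicate 4 there were 407 and 125. All 12 libraries in 1 fit gave 244 and 100. Other factors (195 and 61), no filter on low counts (267 and 73) and no transposable elements (143 and 54) moved the counts by less than 1.5 times. Leaving out 1 library gave 139 to 235 higher and 36 to 79 lower. The replicate numbers did not pair the libraries (correlations of same-numbered libraries between -0.45 and -0.05), and a replicate block left 114 higher and 28 lower, with ND-75 at -0.75. For ND-75 the log2 fold change of -0.79 was -0.785 with DESeq2, -0.80 with 12 libraries and -0.62 without both libraries, each then past the threshold, and -0.91 to -0.54 without 1 library. ND-75 passed in none of the 8 fits without 1 library (edgeR adjusted p 0.0948 to 0.343). Against weak knockdown heads, alternatives chosen after seeing the data gave 1087 higher and 599 lower with DESeq2, 829 and 298 with a replicate block, and 597 to 1037 and 189 to 651 without 1 library. Of these 113 genes, 74 were called in all 8 fits without 1 library and 39 were not in at least 1. In simulated counts with 4 libraries a group, a log2 change of 1 was recovered in 62% of features.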

Other observations

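Called features lay near each other more often than other features did. Of the 249 called, 62 (24.9%) had another called feature within 10000 bases, while 790 of all tested features (7.51%) lay that close to a called one, and 56 of the 62 had changed in the same direction as the nearest. As 187 of the 249 were higher, neighbours would often share a direction in any case. Pairs could count from both ends, and some of these places hold overlapping genes or near-identical copies. Apart from the pickpocket, heat shock and aldo-keto reductase genes above, such places were CG18343 with SkpB on 2R, which overlap on opposite strands (log2 1.90 and 2.43), the maltase gene Mal-B1 with CG42751 and CG31704 on 2L (0.99, 1.75 and 1.65), and 6 transposable element insertions on chromosome 4, all higher. By chromosome arm the share called was 3.02% on 3L, 2.62% on 3R, 2.46% on 4, 2.32% on 2R, 2.25% on 2L and 1.35% on the X.

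Some increases concerned genes with general roles in RNA or cilia, chosen after their values were seen. Oseg2, an intraflagellar transport protein, had 7.71, 6.65, 6.86 and 7.45 CPM in strong knockdown heads against 2.22, 1.62, 2.41 and 2.19 CPM in control heads (log2 1.76). IntS12, a subunit of the Integrator complex that processes small nuclear RNAs, had 9.56, 8.74, 9.87 and 10.4 CPM in strong knockdown heads, against 2.42, 2.55, 3.63 and 3.07 CPM in control heads (log2 1.72). Both were called whichever library was left out. Qtzl, a gene made by fusion of older genes, had 15.1, 12.1, 14.9 and 19.7 CPM in strong knockdown heads, against 6.37, 6.10, 5.89 and 5.17 CPM in control heads, and its reads may be shared with its parent genes.

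The marker genes w and v, used to follow transgenes in many fly lines, were not called with all 8 libraries (log2 0.19 and -0.82). Without both libraries that stood apart they were called, w higher (log2 0.53, edgeR adjusted p = 0.0253) and v lower (log2 -0.79, adjusted p = 0.0324). y, a pigment gene also used in this way, was higher (7.42, 8.52, 6.26 and 5.27 CPM in strong knockdown heads against 1.48, 0.606, 3.40 and 2.41 CPM in control heads, log2 1.79), though not in 5 of the 8 fits without 1 library. CG12522 had no read in any control library and 1.68, 0.782, 0.894 and 1.33 CPM in strong knockdown heads.

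In lists not described above, edgeR called 0 of 86 cytoplasmic ribosomal protein genes (DESeq2 1, with an unadjusted p under 0.05 for 1 higher and 1 lower), and 0 of 14 TOR, GATOR and insulin genes (DESeq2 0, 1 and 1). It called 0 of 10 genes of mitochondrial dynamics and mitophagy (DESeq2 0, 1 and 0), and 0 of 10 clock genes (DESeq2 0, 0 and 1). Of 12 sex-biased genes it called 0 (DESeq2 0, 2 and 1), and of 19 genes of chitin synthesis and turnover 0 (DESeq2 0, 5 and 0). Without strong knockdown replicate 4, 4 of these chitin genes were higher. Of 13 genes of cytosolic NAD recycling, Ldh and Adh were called, and of 8 genes for amylases, maltases and digestive proteases, Mal-B1 was. Negative fold changes were found for 68 of the 86 cytoplasmic ribosomal protein genes (median -0.10).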
